A study of Mus musculus with 2 samples.

Results

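Followed here were the insulin-like growth factor gene Igf1, its receptor gene Igf1r and the 7 binding protein genes Igfbp1 to Igfbp7. They were read in 2 cell populations cultured from mouse fat and put through an adipocyte differentiation protocol. These 9 genes were found by symbol, through the RefSeq transcript that each array probe carries, and all 9 were represented, by 13 of the 27506 probes and among 20884 genes that could be named. Both populations came from collagenase-digested epididymal fat of male C57/BL mice, of an age that the labels do not state. Small proliferative adipocytes were the cells that sedimented when the floating fraction was spun again, and stromal vascular cells (spelled "viscular" in the sample titles) were taken from below the floating layer after the initial spin. Each was grown in DMEM to 90% confluency, kept for 3 days in medium with insulin, dexamethasone and IBMX, which induce adipocyte differentiation, and then for 2 days in DMEM without them. After differentiation the former are abbreviated SPAD and the latter SVCD. Each is 1 RNA sample on 1 single-colour Agilent array, and how many mice or cultures an RNA came from is not stated. No untreated or undifferentiated cells were on the arrays analysed here.

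IGF1 is a secreted growth factor that binds a receptor tyrosine kinase, the product of Igf1r, and through it the insulin receptor substrates, the PI3K and AKT kinases and the RAS and MAPK cascade. In fat it is made by stromal cells and adipocytes, and by macrophages, and it acts on preadipocytes to favour growth and differentiation. The binding proteins hold IGFs in blood and matrix, lengthen their life and limit or direct their access to the receptor, and proteases that cut the binding proteins set the IGFs free again.

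The array reads a gene as the fluorescence intensity of its probe, so the signals below compare 1 probe between the arrays and never 1 gene with another. Differences are log2 SPAD minus SVCD after each array was scaled to the 75th percentile of its own probes. The error after ± is the SD of log2 signal between repeat spots of other probes at the same brightness, combined over both arrays. It covers spot error only, not cultures, RNA extraction or labelling. With 1 array a group no difference was tested and none has a replicate check, so a gene is counted only by size, at least 2-fold. In bulk RNA, fewer cells that express a gene and less RNA of it per cell cannot be told apart.

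Igf1 was the member with the largest difference and was lower in SPAD on all 4 of its probes. The brightest probe gave a signal of 1738 in SPAD and 23133 in SVCD, a log2 difference of -3.61 ± 0.08, or 12.2-fold lower. The next gave 1207 and 16905, and its difference of -3.68 ± 0.08 lay within the spot error of the first. On these probes Igf1 was bright in both populations, and the SPAD signals themselves lay above that array's 75th percentile of 622. The other probes were dimmer and the gap on them was wider. One read 18.5 in SPAD and 2514 in SVCD (-6.96 ± 0.34, 124-fold lower). The last read 12.5 in SPAD, not well above background, and 424 in SVCD. Taken at that dim signal, it was 31.0-fold lower (-4.96 ± 0.34). The probes thus shared the direction but not the size, with a range of 3.35 log2 units over the 3 measured on both arrays. All 4 are annotated to 1 RefSeq transcript (NM_010512), while the RefSeq table lists 5 curated and 16 predicted transcripts of Igf1, and which part of the gene each probe reads is not given in the files. Averaged over its 4 probes Igf1 differed by -4.80, and with the normexp background correction of the brightest probe by -3.57.

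**Figure D1:**
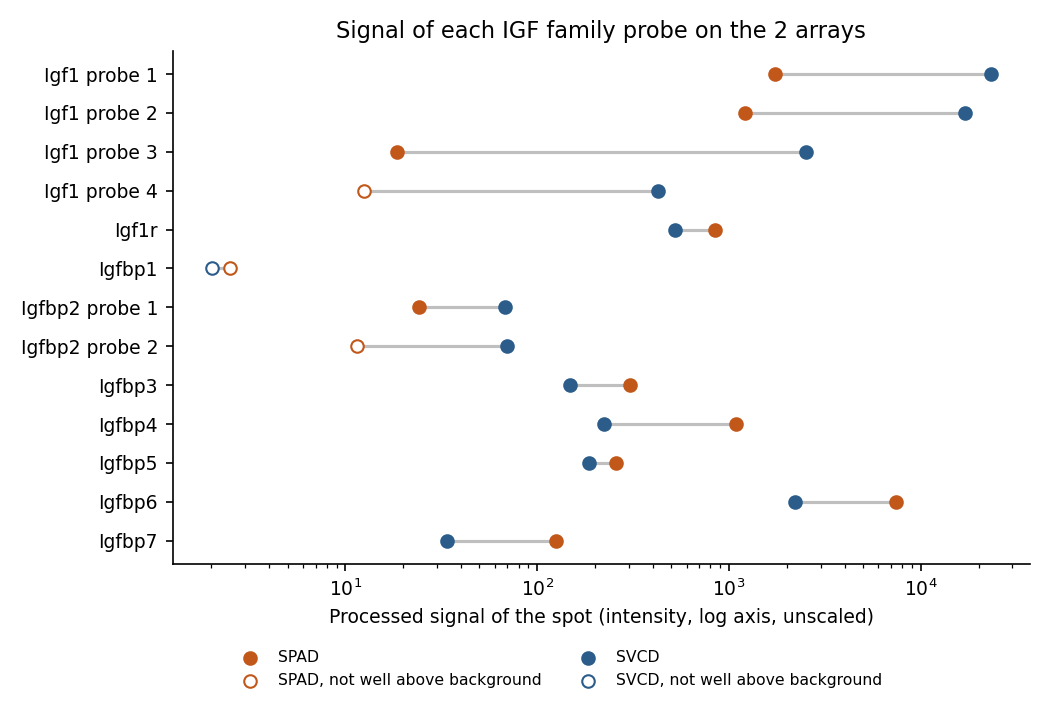
Processed signal (intensity, log axis, before scaling) of all 13 probes of the 9 genes on the SPAD array (orange) and the SVCD array (blue), 1 spot each; open circles are not well above background. The Igf1 signals lie far to the left in SPAD on all 4 probes, Igfbp2 also lies to the left in SPAD, and Igfbp3, Igfbp4, Igfbp6 and Igfbp7 lie to the right.

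The receptor gene Igf1r differed less and the other way. Its single probe read 841 in SPAD and 525 in SVCD, a difference of 0.80 ± 0.09 (1.75-fold higher), short of 2-fold. The sign depended on scaling: with the arrays set to their spike-in controls it was -0.01.

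Most binding protein genes were higher in SPAD. Igfbp4, whose product holds IGFs away from the receptor until the protease PAPP-A cuts it, had the largest excess. It read 1082 in SPAD and 222 in SVCD, a difference of 2.41 ± 0.12 (5.33-fold). Igfbp7, a low-affinity IGF binder found in vessel walls and basement membrane, read 126 and 33.8, a difference of 2.02 ± 0.38 (4.06-fold). Its larger error comes from the dim SVCD signal, and its probe carries 1 of the 2 curated transcripts of the gene. Igfbp6, whose product prefers IGF2 over IGF1, read 7391 and 2199, a difference of 1.87 ± 0.08 (3.67-fold). Igfbp3, the main IGF carrier of blood, read 306 and 148, a difference of 1.17 ± 0.12 (2.25-fold), just past the size rule. It was under 2-fold with the normexp background correction (0.97) and with spike-in scaling (0.36). Igfbp4, Igfbp6 and Igfbp7 stayed past 2-fold under all 10 alternatives tried. The smallest values were 1.60 for Igfbp4 and 1.06 for Igfbp6, both with spike-in scaling, and 1.10 for Igfbp7 with normexp.

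The remaining binding protein genes went the other way, differed little or could not be read. Igfbp2, a binding protein made by many tissues and by preadipocytes, was lower in SPAD on both of its probes. One read 24.2 in SPAD and 68.1 in SVCD, a difference of -1.37 ± 0.35 (2.58-fold lower). The other read 11.4, not well above background, and 69.7. Taken at that dim signal, it was 5.58-fold lower (-2.48 ± 0.35). These are dim signals, and with normexp the first difference shrank to -0.54, while its sign held under every alternative run. Igfbp5, which binds extracellular matrix, read 258 and 186, a difference of 0.60 ± 0.12 (1.51-fold), and turned to -0.21 with spike-in scaling. Igfbp1, a liver product that insulin represses, read 2.52 and 2.01, on neither array well above background.

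**Figure D2:**
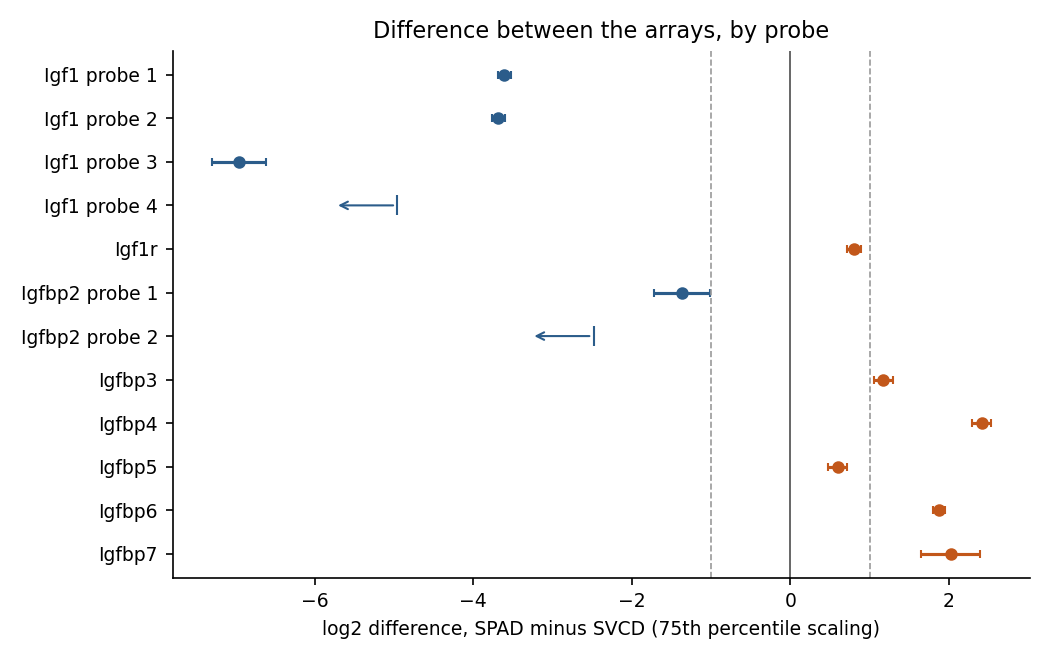
Log2 difference SPAD minus SVCD of the 12 probes well above background on at least 1 array. Points are probes well above background on both arrays, with ± 1 spot SD, and dashed lines mark 2-fold. Arrows start at the measured difference of probes not well above background in SPAD. The 4 Igf1 probes lie between -3.61 and -6.96, the Igfbp2 probes at -1.37 and -2.48, and the highest is Igfbp4 at 2.41.

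With each gene read from its brightest probe, 8 of the 9 genes were well above background, all of them on both arrays. Past 2-fold on the SPAD side were 4 of these 8 (Igfbp3, Igfbp4, Igfbp6 and Igfbp7), where the share over all 15626 genes above background on at least 1 array was 16.3%. Past 2-fold on the SVCD side were 2 (Igf1 and Igfbp2), where that share was 14.1%. The median of the 8 differences was 0.99, beside 0.06 over all these genes, and their mean was 0.49 because of Igf1. In the ranking of all 15626 differences, 193 genes (1.24%) lay below Igf1 and 1532 (9.80%) below Igfbp2. At the other end 585 genes (3.74%) lay above Igfbp4, 835 (5.34%) above Igfbp7 and 973 (6.23%) above Igfbp6. Above Igfbp3 lay 2037 (13.0%), above Igf1r 3255 (20.8%) and above Igfbp5 4213 (27.0%). Igf1 was therefore far out in the lower tail.

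**Figure D3:**
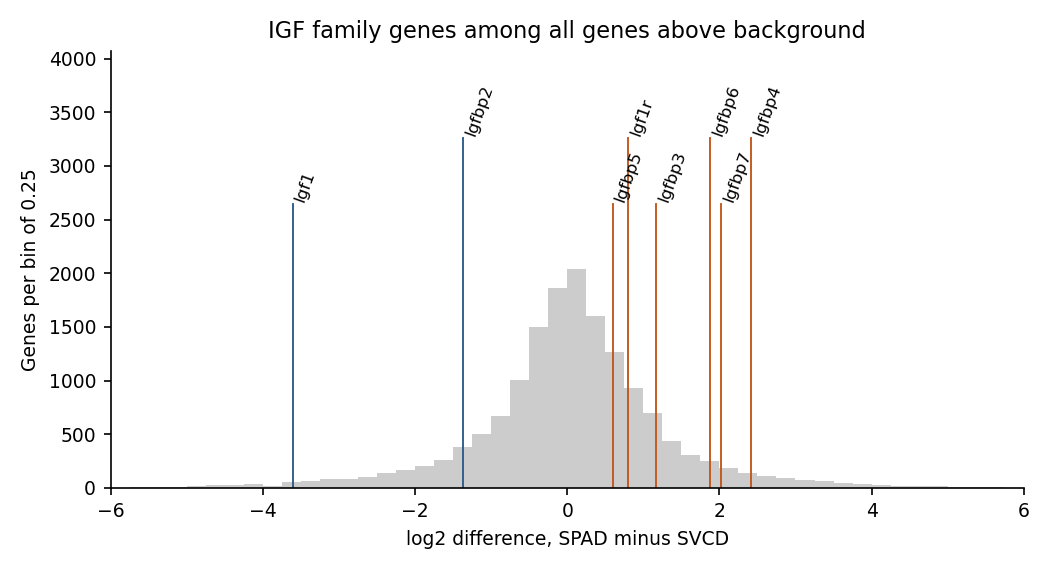
Histogram of the log2 difference SPAD minus SVCD of 15626 genes in bins of 0.25 (grey; genes beyond 6 in either direction are not drawn), with a line for each of the 8 measured IGF family genes. Igf1 stands in the lower tail at -3.61, Igfbp2 at -1.37, and the other 6 lie between 0.60 and 2.41.

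The labels do not state whether both samples received the same amount of spike-in RNA, so spike-in scaling is given as an alternative only. Spike-in controls moved every difference by -0.81, and the median over all genes from 0.06 to -0.74. The share of higher genes among those past 2-fold was then 15.2% in place of 53.6%. Under that scaling the median of the 8 genes was 0.18, 3 genes were past 2-fold on the SPAD side and 2 on the SVCD side, and Igf1r and Igfbp5 changed sign. The order of the genes read from their brightest probe is not touched by a constant shift: Igf1 and Igfbp2 remain lowest, and Igfbp4, Igfbp7 and Igfbp6 highest. Neighbours in that order at the top, Igfbp7 and Igfbp6, differ by less than the spot error of Igfbp7, as do Igfbp4 and Igfbp7 within their combined spot error.

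**Figure D4:**
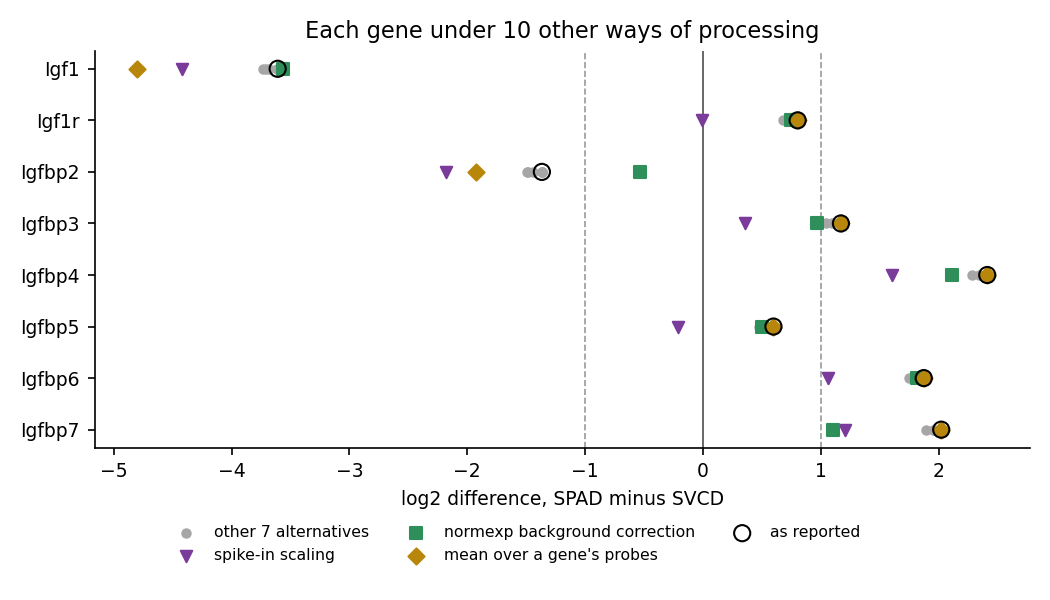
Log2 difference SPAD minus SVCD of each measured gene as reported (open circle) and under 10 other ways of processing; dashed lines mark 2-fold. Igf1 lies at -3.57 or lower throughout, Igf1r and Igfbp5 cross 0 with spike-in scaling only, and Igfbp2 comes inside 2-fold with normexp only.

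The sequence upstream of the start site is shown for Igf1 and for the 3 binding protein genes with the largest difference, since these went opposite ways. All 9 genes matched RefSeq's promoter entries (GRCm38.p6), and the 250 bases before the listed start are printed 5′ to 3′ on the gene's strand. The Igf1 stretch is chr10:87860861-87861110 (plus strand) and belongs to 1 of several start sites of that gene. Those of the others are chr11:99040994-99041243 for Igfbp4 (plus), chr15:102143936-102144185 for Igfbp6 (plus) and chr5:77408046-77408295 for Igfbp7 (minus). Capitals mark matches, on either strand, to the TATA box TATAAA, the CCAAT box CCAAT or the GC box GGGCGG.
Igf1: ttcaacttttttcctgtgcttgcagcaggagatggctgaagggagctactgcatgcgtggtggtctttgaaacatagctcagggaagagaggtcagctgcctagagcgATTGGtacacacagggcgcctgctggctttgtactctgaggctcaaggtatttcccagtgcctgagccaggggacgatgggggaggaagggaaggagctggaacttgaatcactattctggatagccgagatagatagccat
Igfbp4: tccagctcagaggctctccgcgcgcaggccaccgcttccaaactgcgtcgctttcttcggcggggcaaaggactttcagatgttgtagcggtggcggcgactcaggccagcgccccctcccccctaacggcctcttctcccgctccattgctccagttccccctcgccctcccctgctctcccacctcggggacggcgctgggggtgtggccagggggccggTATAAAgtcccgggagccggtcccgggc
Igfbp6: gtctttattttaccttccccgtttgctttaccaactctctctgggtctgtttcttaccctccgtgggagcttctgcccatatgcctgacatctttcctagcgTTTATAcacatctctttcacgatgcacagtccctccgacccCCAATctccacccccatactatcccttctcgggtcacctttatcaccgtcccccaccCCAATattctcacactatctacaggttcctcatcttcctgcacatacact
Igfbp7: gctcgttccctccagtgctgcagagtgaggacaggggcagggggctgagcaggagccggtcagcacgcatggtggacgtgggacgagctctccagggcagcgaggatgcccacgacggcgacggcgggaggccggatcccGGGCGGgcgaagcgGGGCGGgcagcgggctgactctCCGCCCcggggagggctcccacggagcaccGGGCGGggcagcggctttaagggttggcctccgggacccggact

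The 4 upstream stretches had little in common. Igfbp4 held a TATA box from 28 to 23 bases before the start, and Igfbp6 held 1 from 148 to 143 bases before it, a motif found in 12.4% of 32851 promoter entries. Igfbp7 held 4 GC boxes, a motif of 32.7% of entries. Igf1 held 1 CCAAT box and Igfbp6 held 2, against 33.8% of entries with at least 1. No match in any of the 10 entries of the 9 genes was found for the cAMP response element TGACGTCA, the FOXO site GTAAACA or the C/EBP site TTGCNNAA, which stood in 1.55%, 3.17% and 9.56% of all entries. The glucocorticoid response half-site AGAACA, in 16.1% of all entries, was found once among them, from 206 to 201 bases before a start of Igfbp2. GC content was 74.0% for Igfbp7 and 69.2% for Igfbp4 but 49.6% for Igfbp6 and 52.8% for Igf1, around the median of 52.4% over all entries. Genes that were higher in SPAD thus lay on both sides of that median. A match is a description of these letters only.

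Pairs of the binding protein genes are neighbours in the genome, with 0 protein-coding genes between them in the RefSeq table. Igfbp2 and Igfbp5 adjoin on chromosome 1, and here Igfbp2 was lower in SPAD (-1.37) while Igfbp5 differed by 0.60. Igfbp1 and Igfbp3 adjoin on chromosome 11, where Igfbp1 was not well above background and Igfbp3 was higher (1.17).

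The other genes of the pathway were read from 9 lists with 98 genes, of which 86 were well above background on at least 1 array. Past 2-fold were 12 on the SPAD side and 9 on the SVCD side, and the median was 0.17. The same shares over all genes were 16.3% and 14.1%. These counts, and those of each pathway and cell type list below, are to be read beside them. With spike-in scaling 5 of the 86 genes were past 2-fold on the SPAD side and 33 on the SVCD side, with a median of -0.64. Under that scaling 1038 of all 15626 genes were past 2-fold on the SPAD side and 5811 on the SVCD side. The median over all genes was then -0.74. Further ligand and carrier genes were not detected: Igf2, the other IGF ligand, read 2.95 and 3.30, and Igfals, which stabilises the complex of IGF and IGFBP3 in blood, read 3.56 and 1.73, neither well above background. Igf2r, which takes up IGF2 for breakdown, read 1890 in SPAD and 3775 in SVCD (-0.87 ± 0.03). Insr, the insulin receptor, read 329 and 152, a difference of 1.24 ± 0.12 (2.36-fold higher), with 1.08 and 1.39 on its other probes, though 0.94 with normexp and 0.43 with spike-in scaling.

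Of the growth hormone axis, which drives Igf1 transcription in liver, all 8 genes were detected, and the 2 past 2-fold were on the SPAD side. Socs3, a feedback inhibitor of JAK kinases, was 3.11-fold higher (1.64 ± 0.08). The growth hormone receptor gene Ghr differed by 1.40 ± 0.09 (2.65-fold) on the brighter probe and by 0.34 on the other, and both genes were under 2-fold with spike-in scaling (0.82 and 0.59).

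Proteases that cut binding proteins, and inhibitors of such proteases, went both ways. Past 2-fold were 2 of 10 detected genes on each side, beside shares of 16.3% and 14.1% over all genes. Mmp3, the matrix protease stromelysin, read 2503 in SPAD and 140 in SVCD (4.29 ± 0.11, 19.6-fold higher). Plau, the urokinase that activates plasminogen, read 128 and 3229 (-4.53 ± 0.11, 23.0-fold lower). Mmp9 was not well above background in SPAD, at 7.97 against 97.0, and was at least 8.24-fold lower (-1.06 with normexp). Stc2, a stanniocalcin that inhibits PAPP-A, was 2.63-fold higher (1.40 ± 0.13; 0.92 with normexp and 0.59 with spike-in scaling).

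Cell-surface proteins that bind IGFBPs were mostly lower in SPAD, 4 of 8 past 2-fold, with a median of -1.06. The endocytic receptor gene Lrp1 (-1.49 ± 0.08) and the integrin gene Itga5 (-1.50 ± 0.08) were 2.80-fold and 2.84-fold lower. The receptor phosphatase gene Ptprz1 read 3.18 in SPAD, not well above background, and 47.1 in SVCD, lower past 2-fold by its bound but not with normexp (-0.74). Itgb3, the integrin beta subunit that pairs with alpha V, was the exception: it read 9955 in SPAD and 907 in SVCD (3.58 ± 0.08, 12.0-fold higher), with 3.49 on its other probe.

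Other genes whose products carry an IGFBP-like domain held the highest difference of the 86 pathway genes, although 2 of 8 detected were past 2-fold on the SPAD side and 1 on the SVCD side. Esm1, a proteoglycan secreted by endothelial cells, read 43473 in SPAD and 1355 in SVCD (5.13 ± 0.08, 35.0-fold higher). Ccn4, a matricellular protein gene and WNT target, read 36.9 and 809 (-4.33 ± 0.34, 20.1-fold lower), with -4.32 on its other probe. Crim1, a membrane protein that binds BMPs, was 2.30-fold higher (1.20 ± 0.08; 0.39 with spike-in scaling). Of the genes for IGF2 mRNA-binding proteins, Igf2bp2 differed by -0.58 ± 0.08 and Igf2bp1, dim on both arrays, by -0.06 ± 0.50.

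Inside the cell the differences were smaller. Of 14 receptor adaptor genes 1 on each side was past 2-fold. Irs2, a docking protein of the insulin and IGF1 receptors, read 7045 and 2051 (1.91 ± 0.08, 3.75-fold higher), and Grb10, an adaptor that restrains both receptors, read 249 and 544, at the very limit of 2-fold and inside it with normexp (-0.84). In the PI3K, AKT, FOXO and mTOR list 22 of 25 genes were within 2-fold. Foxo1, a transcription factor that AKT keeps out of the nucleus, was 2.49-fold higher (1.31 ± 0.08) and Eif4ebp1, a translation repressor that mTOR switches off, 2.53-fold higher (1.34 ± 0.08), whereas Pik3cd, the PI3K subunit of leukocytes, was 2.78-fold lower (-1.47 ± 0.09). With spike-in scaling Foxo1 and Eif4ebp1 came inside 2-fold (0.50 and 0.53). In the RAS and MAPK list (median 0.37), Map2k1, the kinase that activates ERK, read 7174 and 4227 and differed by 0.89 ± 0.08.

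**Figure D5:**
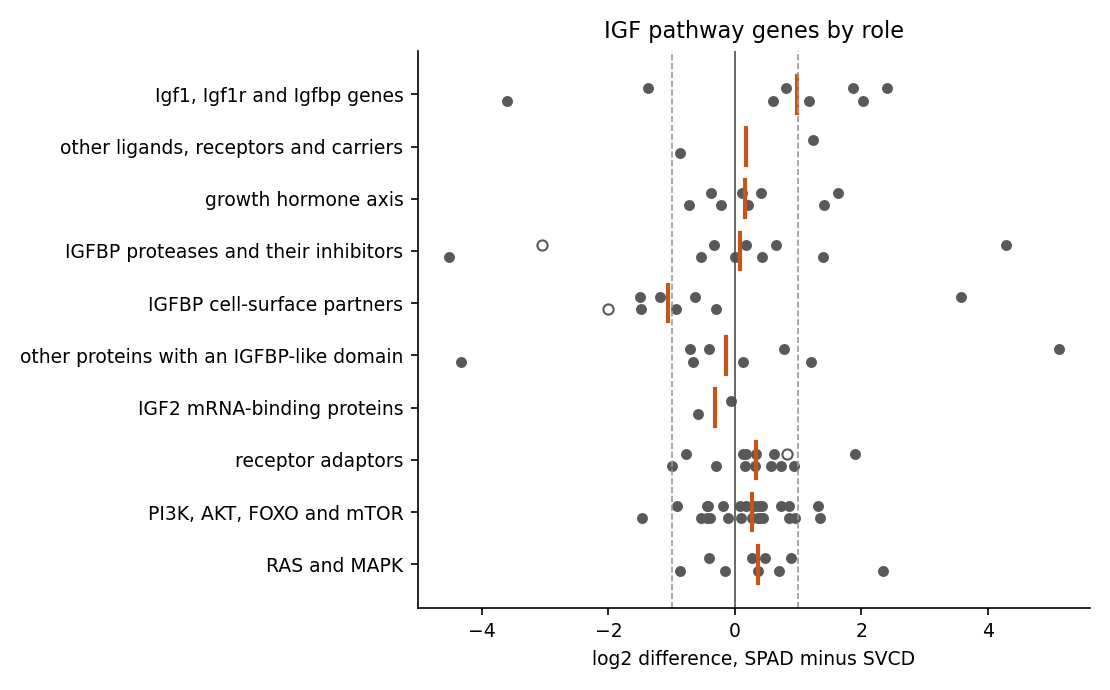
Log2 difference SPAD minus SVCD of each detected gene (grey points; open points are bounds) of Igf1, Igf1r and the Igfbp genes and of 9 lists of other pathway genes, with the list median in orange and 2-fold as dashed lines. The signalling lists at the bottom lie mostly within 2-fold, while proteases, surface partners and IGFBP-like proteins spread from -4.53 to 5.13.

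Markers of the cell types that such cultures can hold also differed between the arrays. With 1 difference a gene, whether they vary with Igf1 or the binding protein genes cannot be read. Adipocyte markers, which check the labels, were all well above background on both arrays, and 8 of 8 were past 2-fold on the SPAD side (median 3.28, and 2.03 with normexp). With normexp 7 were past 2-fold. Their summed level, in units of each array's 75th percentile, was 193 in SPAD and 47.2 in SVCD. Fabp4 supplied 175 and 46.1 of it. Such a sum adds signals of different probes, so its brightest probe can lead it, and it does not measure cell number. Without Fabp4, a choice made after seeing the data, the sums were 18.5 and 1.06. Cidec, named after its values were seen, differed by 3.59 on its brightest probe but by -0.004 on another. Cfd differed by 7.34 ± 0.11, Plin1 by 4.17 ± 0.37 and Adipoq by 4.02 ± 0.37.

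Among cell types known to express Igf1, macrophage markers were past 2-fold on the SVCD side for 5 of 7 measured genes and on the SPAD side for 0 (median -2.72), with summed levels of 178 and 253. The 3 with the largest difference or bound were Csf1r, 16.8-fold lower on its brightest probe (-1.64 on another), Aif1, 26.4-fold lower, and Fcgr1. Fcgr1 was not well above background in SPAD and was at least 34.6-fold lower by its bound. With normexp Fcgr1 differed by -2.59, Aif1 by -3.64 and Csf1r by -4.06. The other macrophage markers, named after their values were seen, differed by -2.72 (Mrc1), -1.32 (Adgre1), -0.86 (Itgam) and 0.35 (Lyz2). On its other probes Itgam differed by -1.79 and -1.65, and Adgre1 by -1.03 on its other probe. Without Lyz2, a choice made after seeing the data, the summed levels were 19.6 and 128. Adipose progenitor markers were past 2-fold on the SPAD side for 3 of 6 detected genes and on the SVCD side for 1, with summed levels of 10.7 and 2.73. Thy1 supplied 8.60 and 0.99 of these. Without it, a choice made after seeing the data, the sums were 2.08 and 1.74. Cd34, named after its values were seen, differed by -0.43 on its brightest probe. On another probe, not well above background in SVCD, it differed by 2.43. Thy1 was 8.72-fold and Pi16 2.84-fold higher, Dlk1 was 2.56-fold lower, and Dpp4 was on neither array well above background. With normexp Pi16 differed by 0.61 and Dlk1 by -0.73, and 1 progenitor marker was higher and 0 lower. Their part in the Igf1 difference was not tested.

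Markers of the vessel wall and of the mesothelium differed too. Endothelial markers were past 2-fold on the SPAD side for 7 of 8 genes (median 3.12, and 2.49 with normexp), with summed levels of 28.8 and 7.47. Sox17 was 13.3-fold and Robo4 10.6-fold higher, and Erg differed by 3.43 (2.44 on another probe, as a bound). Kdr, named after its values were seen, went the other way, by -0.49 on its brightest probe and -1.94 on another. Pericyte markers were higher for 3 of 5 detected genes and lower for 1, with summed levels of 2.39 and 1.29: Rgs5 was 7.19-fold and Notch3 4.31-fold higher, Cspg4 was 2.66-fold lower, and Kcnj8 was on neither array well above background. With normexp Rgs5 differed by 1.14 and Cspg4 by -0.88, and 2 pericyte markers were higher and 0 lower. Smooth muscle markers were lower for 4 of 5 genes (median -3.59, summed levels 24.7 and 315), among them Cnn1 (40.7-fold), Acta2 (13.7-fold) and Tagln (12.0-fold), while Myh11, named after its values were seen, differed by 0.55. Mesothelial markers were lower for 4 of 7 (median -2.99, or -1.22 with normexp, summed levels 2.03 and 17.3). Among them were Krt8 (47.7-fold, though -3.53 with normexp), Krt18 (42.7-fold) and Msln (23.5-fold). Lrrn4 and Upk3b were not well above background in SPAD. The part of these vessel wall and mesothelial markers in the differences of the binding protein genes was not tested.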

How the data were processed

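Total RNA (30 ng per sample) was labelled with Cy3 and hybridised to Agilent arrays, both on 1 slide with the same scan and extraction times, per the file headers. Agilent Feature Extraction (10.7.3.1, as the submitters' processing notes give it) read the spots. The processed signal used here is a linear intensity after background subtraction, per the file headers. A table of log2 values, centred per probe, was deposited as well; its scaling is not stated. The difference of its columns equalled the unscaled scanner difference plus 0.12, within 0.01 for all 39026 single-spot probes.

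Control and outlier spots were left out (73 and 85 outliers), repeat spots averaged in log2, and each array's 75th percentile (intensity 622 in SPAD, 678 in SVCD) subtracted, which left 39425 probes. Of these, 27506 (69.8%) were named through their transcript from a RefSeq table (GRCm38.p6). That table also gave the transcript counts and the neighbouring genes. No probe was placed by genome position, since the arrays' design names mm9. A gene is read from its brightest probe over both arrays. Probes well above background numbered 25414 and 25868, and no spot was saturated. A gene above background on 1 array was set against the higher of its own dim signal and that array's lowest signal well above background. The fold is a lower bound where that lowest signal was the higher. Where the dim signal was the higher, the fold is the measured one and not a strict bound. The spot SD ran from 0.34 and 0.36 (dimmest of 6 bins, SPAD and SVCD) to 0.05 and 0.06 (brightest). The number of arrays limits the precision.

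The genes, lists and alternatives were chosen with earlier results of these data known. Named genes are all 9 members, Igf2, Igf2r, Insr and Igfals, up to 4 genes with the largest difference past 2-fold of each pathway list (or the 2 largest) and up to 3 of each cell type list. Of the cell type markers, 1 was not found on the array. Normexp (limma 3.58.1, offset 50) used the median spot signal, as the files hold no mean signal. Protein sequences were not used here, and 1 gene that the rule names is not reported here. The computation was tested on simulated data.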

Additional observations from a re-analysis of the deposited data

How the results depend on the processing

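With 1 array a group no difference has a replicate check, and leaving out a replicate is impossible. No paired analysis was possible because each group holds 1 sample and the labels number none. Of 10 alternatives, all but normexp and spike-in scaling left the counts of IGF genes at 4 higher and 2 lower. Among them were quantile normalization, median scaling, no scaling, the authors' table and keeping outlier spots. Averaging a gene's probes, dropping the filter on dim probes and requiring signal on both arrays left them so too. With normexp 3 were higher and 1 lower, the median of the members was 0.86, and over all genes 1483 were at least 2-fold higher and 1430 lower, against 2547 and 2206. With spike-in scaling the members' median was 0.18 and all genes counted 1038 higher and 5811 lower. The members' median was 0.86 without scaling and 0.80 without a filter on dim probes. No named gene past 2-fold changed sign under any alternative. The cause of these shifts was not tested. Signals of Igfbp2 in SPAD, of Igfbp7 in SVCD and of the dimmer Igf1 probes in SPAD lie in the dimmest of the 6 signal ranges, where spot error is widest.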
